A study of Mus musculus with 18 samples.

Results

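Immune cells are told apart by genes that each lineage transcribes and other cells do not. A panel of 39 such genes was followed here in mouse esophageal organoids. The panel was chosen by gene symbol and holds 4 pan-leukocyte genes, 6 T cell genes, 2 B cell genes, 3 cytotoxic genes, 16 macrophage and myeloid genes, 4 neutrophil genes and 4 MHC class II genes. Of the 39 symbols, 38 had a row in all 3 deposited count tables, which share 24394 gene symbols, and Ly6g was not analysed here.

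As background, the surface phosphatase CD45 (Ptprc) is carried by nearly all nucleated blood cells. T cells carry the CD3 chains with CD4 or CD8, and B cells carry CD79A and CD20 (Ms4a1). Macrophages carry the CSF1 receptor, F4/80 (Adgre1), lysozyme (Lyz2) and complement C1q, and neutrophils are rich in the calcium-binding pair S100A8 and S100A9. MHC class II molecules present peptides to CD4 T cells; dendritic cells, macrophages and B cells make them constitutively, and epithelial cells can be induced to make them by interferon-gamma. Some genes of the panel are not exclusive to leukocytes: CD68, CD14, arginase 1, CXCR2, S100A8 and S100A9 are also made by certain epithelial cells.

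The series is bulk RNA-seq of 18 libraries in 6 groups. Per the labels all carry Trp53-/-, Myc overexpression (Myc OE) and a guide against Cdkn2a (sgCdkn2a). The premalignant organoids carried in addition a guide against Tgfbr2 (premalignant sgTgfbr2, 4 libraries, 2 each from lines 1 and 2) or a scrambled guide (premalignant sgScr, 3 libraries). The tumor organoids were likewise labelled tumor sgTgfbr2 (2 libraries) or tumor sgScr (3 libraries). Tumor organoids with sgTgfbr2 were also treated with pinaverium bromide, which blocks calcium channels, at 2 µM once they had grown for 72 h (PB, 3 libraries) or given DMSO (vehicle, 3 libraries). The organoid medium of all groups held A83-01 at 2 µM, which blocks kinase signalling by TGF-beta type I receptors. The sources used here do not give the host in which tumors grew, the duration of drug exposure, or whether replicates were separate cultures. The p-values therefore reflect library-to-library spread, which may be technical.

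Library totals lay between 14993749 and 21784140 counts, so 3 counts, taken as the limit that a count of 0 allows, stood for 0.138 to 0.200 counts per 1000000 of the library total (CPM). This limit covers counting error only. The targeted gene Tgfbr2 measured 128, 131, 105 and 86.2 CPM in premalignant sgTgfbr2 against 188, 179 and 219 in premalignant sgScr. It measured 67.5 and 71.2 CPM in tumor sgTgfbr2 against 120, 112 and 129 in tumor sgScr. Tgfbr2 was 66.8 to 69.4 CPM with PB and 93.1 to 103 with vehicle. The 5 libraries labelled tumor sgTgfbr2 or tumor sgScr stood apart from the rest. Their Myc level was 41.8 to 93.3 CPM, against 290 to 647 CPM in the other 13, although all carry the Myc label. Those 2 groups also stood apart from each other at Cdkn2a, which all libraries' labels name as targeted: it measured 168 and 136 CPM in tumor sgTgfbr2 and 0 to 1.11 in tumor sgScr, and 266 to 382 in the other 13. Trp53 had counts in every library, at 22.9 to 96.1 CPM. All 5 are labelled organoids, and whether they were cultured organoids or tumor tissue was not tested. Every comparison of the tumor sgTgfbr2 and tumor sgScr libraries below rests on these 5, so no value without them can be given for it.

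The first question was how much of each lineage's RNA the 6 groups held. The libraries labelled tumor carried macrophage and MHC class II transcripts. They also carried transcripts of the neutrophil class, mainly S100a8 and S100a9, which stressed squamous epithelium also transcribes. Cxcr2 overlapped between the tumor and vehicle libraries, at 7.43 to 12.8 and 6.68 to 8.46 CPM. Most of the 38 members were absent or under 1 CPM in the premalignant, PB and vehicle libraries. Some related genes outside the panel were higher there. Cd5, listed with other T and NK cell genes, averaged 10.7 CPM in premalignant sgScr, 8.82 in PB and 10.8 in vehicle. Over the 38 genes the summed level was 4323 ± 94.4 CPM in tumor sgTgfbr2 (SD, n = 2) and 2264 ± 90.4 in tumor sgScr (n = 3). The sum was 146 ± 12.3 CPM in premalignant sgTgfbr2 (n = 4) and 103 ± 14.1 in premalignant sgScr (n = 3). It was 158 ± 2.01 CPM in PB and 285 ± 8.2 in vehicle (n = 3 each). Arg1, which cells other than leukocytes also make, carried most of the differences within the tumor and drug pairs. Without it, in a sum added after the data were seen, the level was 1961 ± 94.5 CPM in tumor sgTgfbr2 and 1991 ± 78.9 in tumor sgScr, and 66.5 ± 3.19 in PB and 78.4 ± 4.04 in vehicle. The 3 tables were deposited separately, so levels set across them are a description with no test. In bulk RNA, fewer cells of a type and less RNA per cell cannot be told apart.

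**Figure D1:**
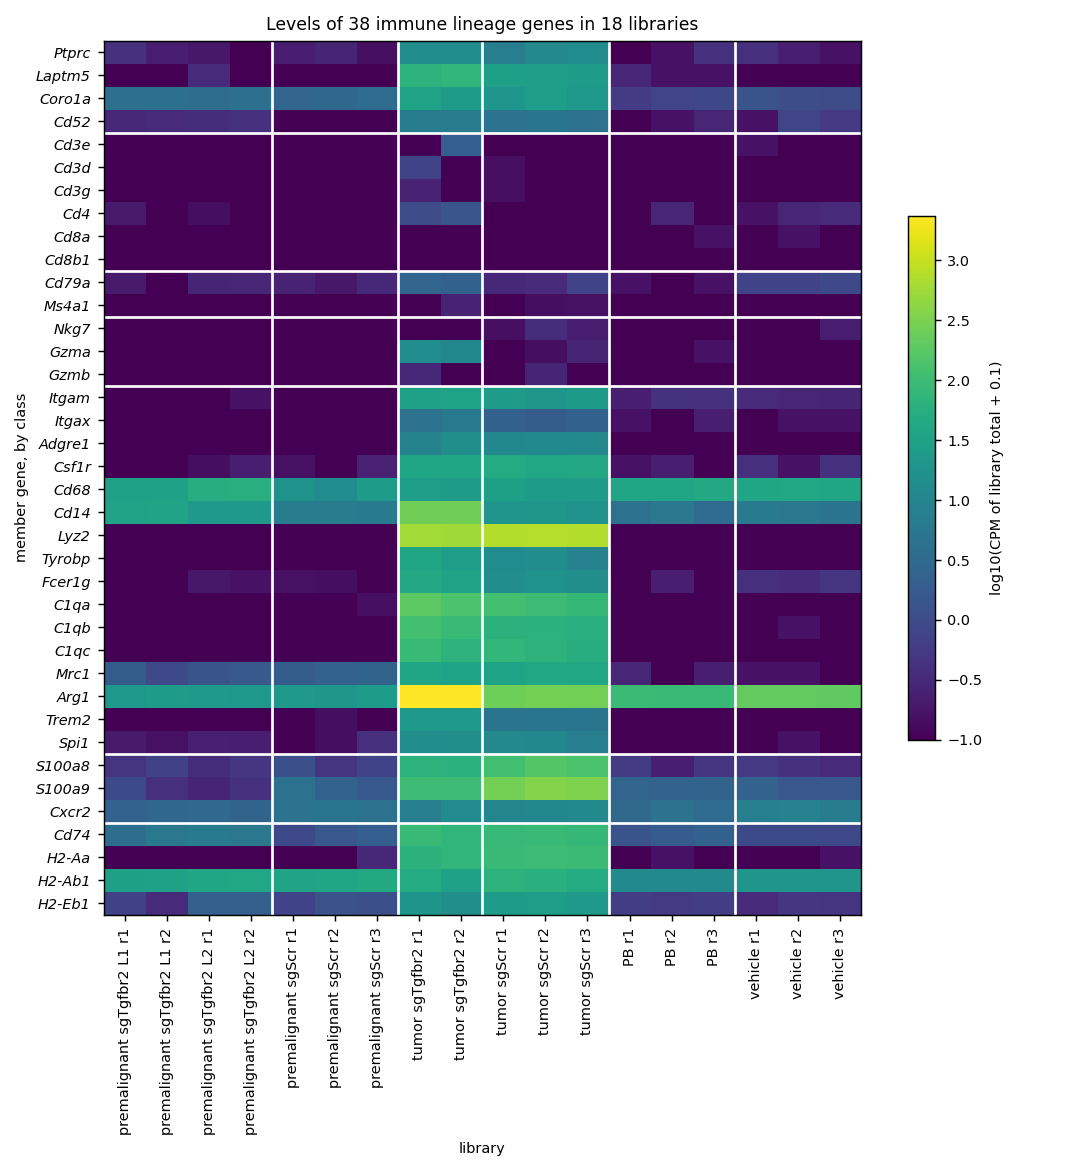
Level of each of 38 immune lineage genes (rows, grouped by class with white lines) in each of 18 libraries (columns, grouped), as log10(CPM of the library total + 0.1). The 5 tumor columns are bright for the pan-leukocyte, macrophage, neutrophil and class II rows, whereas the other 13 columns are bright mainly for Cd68, Cd14, Arg1, Cxcr2 and H2-Ab1. Cd74, Coro1a and S100a9 are at lower levels that vary between those groups, with Cd74 highest in premalignant sgTgfbr2.

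In the 13 premalignant, PB and vehicle libraries, 9 members had no count: Cd3d, Cd3g, Cd8b1, Ms4a1, Gzmb, Adgre1, Lyz2, Tyrobp and C1qc. A further 18 had counts but stayed under 1 CPM in each of the 13, among them Ptprc at no more than 0.326 CPM, Csf1r at no more than 0.312 CPM and Spi1, the macrophage transcription factor PU.1, at no more than 0.305 CPM. The remaining 11 reached 1 CPM in at least 1 of the 13, namely Arg1, Cd68, H2-Ab1, Cd14, Cxcr2, Cd74, S100a9, Coro1a, Mrc1, H2-Eb1 and S100a8. All 5 tumor libraries lay above all 13 others for 23 members. The same held for 10.8% of the 20254 genes with a count, and 16.3% of those genes had all 5 tumor libraries below the others.

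Summed markers of other tissue cells were also higher in the tumor libraries than in the rest, the gastric gland genes in tumor sgTgfbr2 alone. A list of 6 fibroblast genes, all with counts, summed to 2280 to 2340 CPM in tumor sgTgfbr2 and 2842 to 3032 in tumor sgScr, against 0.193 to 4.51 in the other 13 libraries. A list of 6 endothelial genes summed to 99.9 to 108 CPM in tumor sgTgfbr2 and 121 to 142 in tumor sgScr, against 0.410 to 2.12 in the other 13. Of 6 gastric gland genes, all had counts in tumor sgTgfbr2, where they summed to 28023 to 31190 CPM, and 5 had none in tumor sgScr, where the sum was at most 0.0927. In the other 13 libraries the gastric gland sum was at most 0.509. Of 6 skeletal muscle genes, 1 had no count in tumor sgTgfbr2, where the list summed to 216 to 259 CPM, while it summed to 16683 to 17185 in tumor sgScr. Des alone made up 99.0% of the mean sum in tumor sgTgfbr2. In the other 13 libraries the skeletal muscle list summed to 4.77 to 10.4 CPM. A list of 8 squamous epithelial genes, all with counts, summed to 31165 to 31728 CPM in tumor sgTgfbr2 and 119038 to 127787 in tumor sgScr, where Krt4 made up 51.9% of the mean sum. The squamous sum was 7639 to 13562 CPM in the other 13 libraries. Of these 8 genes 5 rose and 3 fell in tumor sgTgfbr2, with a median log2 fold change of 1.06. The part of these cell types in the immune gene differences between the tumor groups was not tested.

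**Figure D2:**
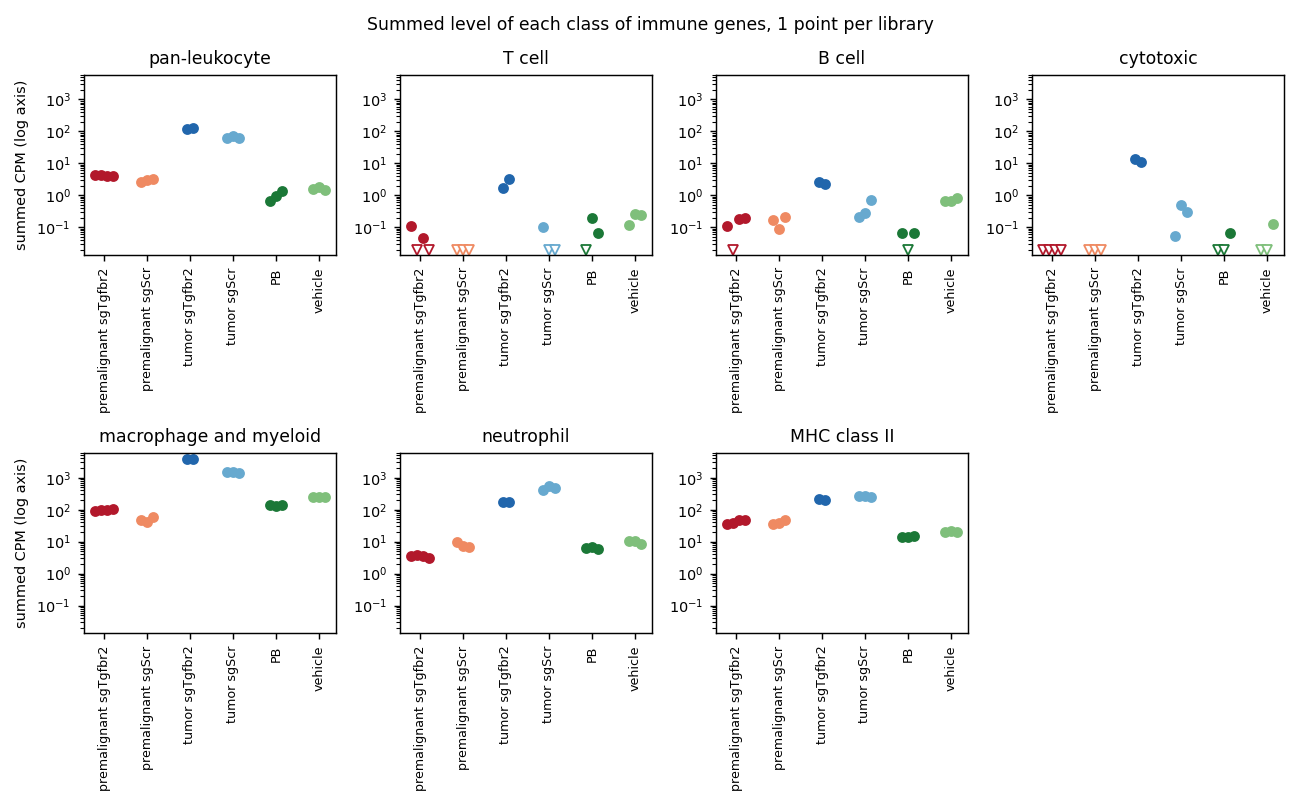
Summed CPM of each of the 7 classes of immune genes (log axis), 1 point per library and 1 colour per group. Open triangles at the bottom mark libraries with no count. Macrophage and myeloid genes are the most abundant class in every group, and T cell and B cell genes stay under 4 CPM in all 18 libraries.

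The pan-leukocyte genes separated the tumor libraries from the rest. Ptprc measured 13.7 and 14 CPM in tumor sgTgfbr2 and 7.23, 11.2 and 13.2 in tumor sgScr. Laptm5, a lysosomal membrane protein of blood cells, measured 68.2 and 76.6 CPM in tumor sgTgfbr2 and 30.8, 27.7 and 24.6 in tumor sgScr, so the groups did not overlap. Cd52, a small glycoprotein of lymphocytes and myeloid cells, lay at 6.94 and 7.10 CPM in tumor sgTgfbr2 and at 4.54, 4.87 and 4.34 in tumor sgScr. Coro1a, an actin regulator of leukocytes, was 33.2 and 26.4 CPM in tumor sgTgfbr2 against 19.96, 27.4 and 21.3 in tumor sgScr. Coro1a differed from the other 3 in being detected throughout, at 3.54 to 3.91 CPM in premalignant sgTgfbr2, 2.52 to 3.26 in premalignant sgScr, 0.467 to 0.773 in PB and 0.936 to 1.27 in vehicle. The other 3 genes did not exceed 0.716 CPM in those 13 libraries.

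The T cell and B cell members of the panel were scarce even in the tumor libraries. Lists of other lymphocyte genes held more. A list of 11 other T and NK cell genes averaged 29.1 CPM summed in tumor sgTgfbr2 and 60.9 in tumor sgScr, with Thy1 highest in both. A list of 7 other B and plasma cell genes averaged 22.3 CPM summed in tumor sgTgfbr2 and 1.71 in tumor sgScr. The 6 T cell genes summed to 2.49 ± 1.07 CPM in tumor sgTgfbr2 (SD, n = 2) and 0.0352 ± 0.0610 in tumor sgScr (n = 3), and to at most 0.260 CPM in any premalignant, PB or vehicle library. Cd3e, a signalling chain of the T cell receptor, had 1.90 CPM in tumor sgTgfbr2 replicate 2 and no count in replicate 1. Cd3d showed the reverse, with 0.651 CPM in replicate 1 and none in replicate 2. The 2 replicates therefore did not share the CD3 chains they contained, and Cd8a and Cd8b1 had no count in any tumor library. Of the B cell genes, Ms4a1 had 5 counts in all 18 libraries together, whereas Cd79a, a signalling chain of the B cell receptor, was detected in each group at up to 2.55 CPM.

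Among the macrophage and myeloid genes, lysozyme and the complement genes separated the tumor libraries from the rest. Lyz2 measured 581 and 572 CPM in tumor sgTgfbr2 and 747, 763 and 748 in tumor sgScr, and had no count in the other 13 libraries. C1qa, C1qb and C1qc, the chains of the complement C1q molecule, together had 2 counts in those 13 libraries. Itgam (CD11b), an integrin of myeloid cells, lay at 31.9 and 34.9 CPM in tumor sgTgfbr2 and 25.6, 20.7 and 23.8 in tumor sgScr, and 68.7% of its annotated exon bases are shared with the overlapping gene Gm49368. Csf1r, the receptor for the macrophage growth factor CSF1, lay at 36.9 CPM in both tumor sgTgfbr2 libraries and 48.9, 39.7 and 43.4 in tumor sgScr.

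Cd68 did not follow this pattern. It encodes a lysosomal glycoprotein used as a macrophage marker, and it averaged 26.5 ± 0.944 CPM in tumor sgTgfbr2 and 26.8 ± 2.81 in tumor sgScr. Its highest group mean was in premalignant sgTgfbr2, at 42.8 ± 12.9 CPM, followed by PB at 39.8 ± 3.31 and vehicle at 39.5 ± 2.65, and its lowest in premalignant sgScr at 18.9 ± 6.34. The means of premalignant sgTgfbr2, PB and vehicle did not differ beyond their SDs, nor did those of the tumor groups. Cd68 was thus present at 13.3 CPM or more in libraries where Lyz2, Tyrobp and Adgre1 had no count.

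Premalignant organoids were compared next, to describe how the sgTgfbr2 guide related to the panel at the premalignant stage. Cd14, Cd68 and Cd74 were higher in sgTgfbr2 and S100a9 and Cxcr2 lower, while the T cell, B cell and cytotoxic genes were too low to be tested. Of the 38 genes, 11 passed the filter on low counts. By edgeR's quasi-likelihood test with Benjamini-Hochberg adjustment over 13098 genes, 3 rose and 2 fell at an adjusted p under 0.05. Among all genes tested 22.7% were higher and 23.5% lower in sgTgfbr2, so the share of members called is near the background. The median log2 fold change was -0.05 over the 11 members and -0.0037 over all genes.

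Cd14, a co-receptor for bacterial lipopolysaccharide, measured 33.4 and 35.1 CPM in sgTgfbr2 line 1 and 21.9 and 23.3 in line 2, against 6.85, 6.75 and 6.51 in sgScr. All 4 sgTgfbr2 libraries were above all 3 sgScr libraries. The log2 fold change was 2.01 ± 0.19 (SE; edgeR adjusted p = 0.000134). Cd68 measured 31.2 and 32.1 CPM in line 1 and 52.3 and 55.4 in line 2, against 17.6, 13.3 and 25.7 in sgScr. The groups did not overlap, and the log2 fold change was 1.12 ± 0.27 (edgeR adjusted p = 0.00844).

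Cd74, the invariant chain that escorts MHC class II molecules, measured 3.64 and 5.45 CPM in line 1 and 6.30 and 5.26 in line 2, against 0.820, 1.42 and 1.93 in sgScr. The groups again did not overlap, with a log2 fold change of 1.81 ± 0.32 (edgeR adjusted p = 0.00198). Of the class II chains, H2-Ab1 and H2-Eb1 did not pass with both lines together, H2-Eb1 at a log2 fold change of 0.30 ± 0.64 (edgeR adjusted p = 0.728), and H2-Aa was too low to be tested. With line 1 alone H2-Ab1 passed at -0.36 (edgeR adjusted p = 0.0244), and with line 2 alone H2-Eb1 passed at 1.02 (edgeR adjusted p = 0.0275). H2-Ab1, a beta chain, was 30.5 and 31.9 CPM in line 1 and 39 and 40.5 in line 2, against 35.5, 36.6 and 44.9 in sgScr, and H2-Aa, the alpha chain that pairs with it, had 4 counts in 1 sgScr library and none in the other 6 premalignant libraries.

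The neutrophil genes were low in all premalignant libraries. S100a9 measured 0.869, 0.300, 0.184 and 0.325 CPM in sgTgfbr2 and 4.10, 2.25 and 1.53 in sgScr, without overlap, for a log2 fold change of -2.70 ± 0.53 (edgeR adjusted p = 0.00347). Cxcr2, a receptor for CXC chemokines that draw neutrophils, measured 2.23, 2.88, 3.04 and 2.47 CPM in sgTgfbr2 and 4.51, 4.87 and 4.43 in sgScr. Its log2 fold change was -0.86 ± 0.20 (edgeR adjusted p = 0.00781). S100a8, the partner of S100a9, measured 0.380, 0.599, 0.276 and 0.389 CPM in sgTgfbr2 and 1.05, 0.367 and 0.661 in sgScr, which overlapped (log2 fold change -0.81 ± 0.48, edgeR adjusted p = 0.191). Cd52 had 19 counts over the 4 sgTgfbr2 libraries and none over the 3 sgScr libraries, at least 5.13-fold higher against a limit of 3 counts over the group, and was too low to be tested. Of the exon bases of Cd52, 14.5% are shared with Crybg2 on the opposite strand.

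The remaining tested members did not pass. Arg1, the most abundant myeloid member in sgScr, measured 21.5, 26.5, 22.2 and 21.7 CPM in sgTgfbr2 and 22.4, 20.2 and 25.7 in sgScr. Mrc1 measured 1.85, 0.839, 1.29 and 1.56 CPM in sgTgfbr2 and 1.87, 2.30 and 2.49 in sgScr (log2 fold change -0.75 ± 0.31, edgeR adjusted p = 0.0754), which passed without sgTgfbr2 line 1 replicate 1 at -0.92, and Coro1a had a log2 fold change of 0.34 ± 0.20 (edgeR adjusted p = 0.193).

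**Figure D3:**
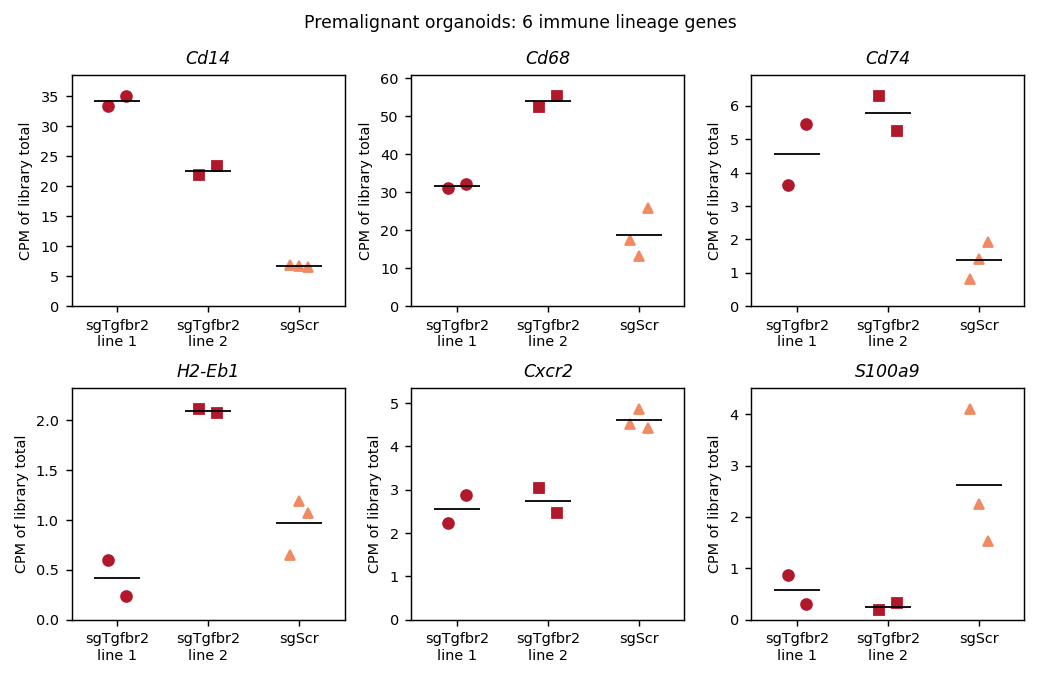
CPM of 6 immune lineage genes in the premalignant libraries, with sgTgfbr2 line 1 (circles), sgTgfbr2 line 2 (squares) and sgScr (triangles); horizontal bars are means. Both sgTgfbr2 lines lie on the same side of sgScr for Cd14, Cd68, Cd74, Cxcr2 and S100a9, whereas H2-Eb1 is below sgScr in line 1 and above it in line 2.

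The 2 sgTgfbr2 lines differed from each other in 4 of the 11 tested members. In a fit of both lines with sgScr, added after the data were seen, 13.3% of 13098 genes were higher and 13.2% lower in line 2 than in line 1. H2-Eb1, the other class II beta chain, measured 2.12 and 2.08 CPM in line 2 and 0.597 and 0.240 in line 1, with sgScr between them at 0.644, 1.19 and 1.07. The log2 difference of line 2 from line 1 was 2.29 ± 0.49 (edgeR adjusted p = 0.00386). Cd68 was higher in line 2 by 0.78 ± 0.19 on the log2 scale (edgeR adjusted p = 0.00858), and H2-Ab1 by 0.36 ± 0.12 (edgeR adjusted p = 0.0409). Cd14 had a log2 difference of -0.59 ± 0.12 (edgeR adjusted p = 0.00273), so line 1 held more Cd14.

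Other genes of the same systems were read beside the panel. Of 19 other macrophage and dendritic genes, 4 passed the filter in the premalignant organoids, 3 of them rose and none fell; Fcgr3, an Fc receptor, averaged 3.16 ± 0.63 CPM in sgTgfbr2 and 0.542 ± 0.15 in sgScr (log2 fold change 2.48 ± 0.32, edgeR adjusted p = 0.000517). Of 12 interferon-gamma response genes, 11 were tested, 8 rose and 1 fell. Cxcl10, a chemokine for T cells, averaged 8.38 ± 1.3 CPM in sgTgfbr2 and 1.18 ± 0.22 in sgScr, with a log2 fold change of 2.75 ± 0.23 (edgeR adjusted p = 7.6e-05), and Psmb8, an immunoproteasome subunit, had one of 1.12 ± 0.17 (edgeR adjusted p = 0.000893). Of 12 other class II pathway genes 7 were tested, of which 2 rose and 1 fell, and Lgmn, a lysosomal protease that trims the invariant chain, rose by 0.64 ± 0.08 (edgeR adjusted p = 0.000513). Of 13 other T and NK cell genes 11 had a row in the count tables, 3 were tested and 2 fell, Cd5 and Eomes. Of 14 other leukocyte genes 5 were tested, with Itgb2 higher and Cd53 lower. Among 9 other B and plasma cell genes 7 had a row, and 1 was tested and did not pass. Of 16 other granulocyte and mast cell genes none could be tested.

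The tumor libraries were compared in the same way. Tumor sgTgfbr2 held more Arg1, Cd14, Trem2 and Gzma, and less S100a8, S100a9 and MHC class II, than tumor sgScr. Of the 38 genes 30 were tested, 12 rose and 8 fell, beside 29.8% higher and 30.5% lower among 15091 genes. The median log2 fold change was 0.17 over the 30 members and -0.02 over all genes. Scaling by the library total alone moves the median of all genes by 0.29 in this comparison, by 0.07 in the premalignant comparison and by -0.14 in the PB comparison. Log2 fold changes and calls are on the composition-corrected (TMM) scale unless another is named. CPM values, sums, overlaps of groups and fold limits from counts are on the library total.

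**Figure D4:**
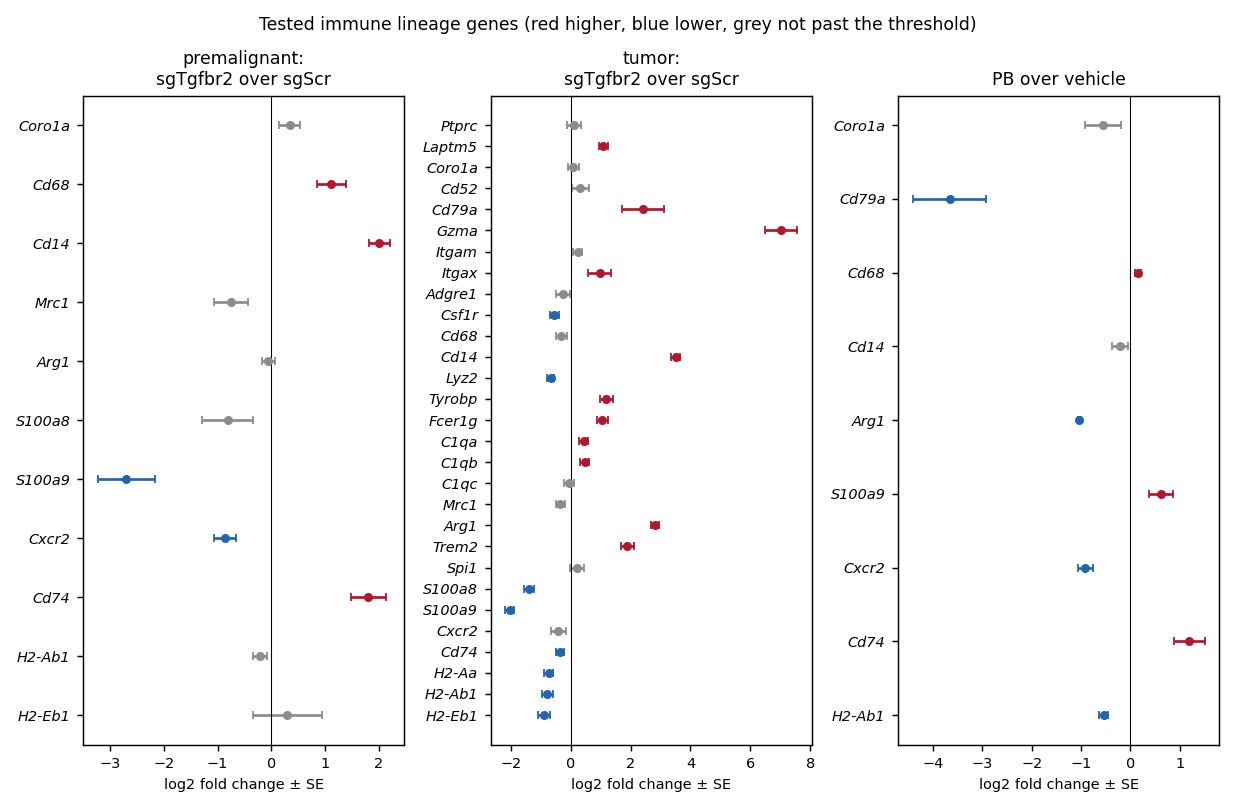
Log2 fold change with its standard error for the tested members in the premalignant, tumor and PB comparisons, in red where higher, blue where lower and grey where not past the threshold. Cd4 in the tumor comparison is left out because no tumor sgScr library had a count. The tumor panel spans both directions, with Gzma highest and S100a9 lowest.

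Within the macrophage and myeloid class, all 16 genes were tested, 8 rose and 2 fell. Arg1, which breaks down arginine and is made by one activation state of macrophages and by liver, measured 2362 CPM in both tumor sgTgfbr2 libraries and 260, 288 and 273 in tumor sgScr (log2 fold change 2.82 ± 0.12, edgeR adjusted p = 9.77e-15). Cd14 measured 267 and 266 CPM in tumor sgTgfbr2 and 19.2, 20.9 and 17.3 in tumor sgScr (log2 fold change 3.51 ± 0.14, edgeR adjusted p = 1.54e-15). These were the 2 members of the class with the greatest increases, and in both the replicates of a group lay close together. Arg1 alone made up 62.1% of the summed level of the class in tumor sgTgfbr2.

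Trem2, Tyrobp and Fcer1g also rose. Trem2, a lipid-sensing receptor of tissue macrophages, measured 22.3 and 21.9 CPM in tumor sgTgfbr2 and 4.70, 4.91 and 4.99 in tumor sgScr (log2 fold change 1.90 ± 0.22, edgeR adjusted p = 1.33e-07). Tyrobp, the adaptor through which TREM2 signals, measured 38.2 and 28.6 CPM in tumor sgTgfbr2 against 13.4, 14 and 8.73 in tumor sgScr (log2 fold change 1.18 ± 0.21, edgeR adjusted p = 6.2e-05). Fcer1g, a signalling chain shared by Fc receptors, measured 43.2 and 33.3 CPM in tumor sgTgfbr2 and 14.1, 16.5 and 14.7 in tumor sgScr, without overlap (log2 fold change 1.05 ± 0.18, edgeR adjusted p = 3.66e-05). The pan-leukocyte gene Laptm5 rose by 1.1 ± 0.15 (edgeR adjusted p = 1.82e-06), while Ptprc, Coro1a and Cd52 had log2 fold changes of 0.11, 0.09 and 0.33 that did not pass.

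The macrophage identity genes themselves gave small differences in both directions. C1qa measured 184 and 139 CPM in tumor sgTgfbr2 and 111, 100 and 82.0 in tumor sgScr, for a log2 fold change of 0.44 ± 0.15 (edgeR adjusted p = 0.0169). C1qb was 111 and 90.9 CPM in tumor sgTgfbr2 against 64.2, 60.8 and 55.1 in tumor sgScr (log2 fold change 0.47 ± 0.14, edgeR adjusted p = 0.0078). Without tumor sgTgfbr2 replicate 1 the log2 fold changes were 0.19 and 0.28 and neither passed, and C1qa did not pass without tumor sgScr replicate 3 either, at 0.32. With a block on replicate number in the fit, neither C1qa nor C1qb passed. C1qc, the third chain, measured 87.6 and 66.9 CPM in tumor sgTgfbr2 and 78.4, 67.8 and 52.1 in tumor sgScr and did not pass.

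Lyz2 was the most abundant member in tumor sgScr and fell in tumor sgTgfbr2, with a log2 fold change of -0.67 ± 0.12 (edgeR adjusted p = 7.79e-05). Csf1r fell with a log2 fold change of -0.54 ± 0.15 (edgeR adjusted p = 0.00452), which was -0.25 and did not pass on the library-total scale, and 15.1% of its exon bases are shared with Hmgxb3 on the opposite strand. Itgax (CD11c), an integrin of dendritic cells and some macrophages, measured 4.34 and 5.70 CPM in tumor sgTgfbr2 and 2.22, 1.85 and 2.2 in tumor sgScr. Its rise of 0.98 ± 0.38 (edgeR adjusted p = 0.0313) did not pass without any one of the tumor sgScr libraries, nor without tumor sgTgfbr2 replicate 2, where it was 0.80 to 1.01. Itgax also did not pass with a block on replicate number in the fit. Adgre1 measured 9.06 and 14.6 CPM in tumor sgTgfbr2 and 11, 12.4 and 11.5 in tumor sgScr, and neither it nor Cd68, Mrc1 (the mannose receptor) or Spi1 passed.

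For Mrc1 the values were 38.7 and 34.1 CPM in tumor sgTgfbr2 and 34.1, 39.7 and 40.0 in tumor sgScr. Its log2 fold change was -0.34 ± 0.16 (edgeR adjusted p = 0.0677), and it passed without tumor sgScr replicate 1 or tumor sgTgfbr2 replicate 1, at -0.43 and -0.47. For Spi1 they were 13.6 and 14.4 CPM in tumor sgTgfbr2 and 11.1, 10.9 and 7.25 in tumor sgScr. For Itgam the log2 fold change was 0.23 ± 0.16 (edgeR adjusted p = 0.236), although its groups did not overlap in CPM, and it was 0.52 and passed on the library-total scale.

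S100a9 and S100a8 fell in tumor sgTgfbr2. S100a9 measured 98.4 and 98.7 CPM in tumor sgTgfbr2 and 293, 367 and 335 in tumor sgScr (log2 fold change -2.04 ± 0.14, edgeR adjusted p = 4.2e-11). S100a8 measured 66.1 and 61.0 CPM in tumor sgTgfbr2 and 113, 162 and 134 in tumor sgScr (log2 fold change -1.39 ± 0.16, edgeR adjusted p = 1.25e-07). Neither pair of groups overlapped, and as background both genes are also transcribed by stressed squamous epithelium. Cxcr2 measured 7.43 and 12.8 CPM in tumor sgTgfbr2 and 10.1, 11 and 11.8 in tumor sgScr, which overlapped, and it passed only without tumor sgTgfbr2 replicate 2, at a log2 fold change of -0.82 against -0.41 with all 5 libraries. Other granulocyte and mast cell genes moved in both directions: of 16 listed, 11 were tested, 4 rose, 2 fell and 5 did not pass. The 2 that fell, named after their values were seen, were the mast cell protease Mcpt4 and Fcer1a, a chain of the IgE receptor. Csf3r, the G-CSF receptor, averaged 16.7 ± 1.8 CPM in tumor sgTgfbr2 and 1.76 ± 0.31 in tumor sgScr (log2 fold change 2.94 ± 0.28, edgeR adjusted p = 6.74e-09), and Retnlg and Mmp8, transcribed by neutrophils, rose by 3.55 ± 0.37 and 3.15 ± 0.50 (edgeR adjusted p = 3.06e-08 and 1.35e-05).

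Among lymphocyte and cytotoxic genes, Gzma stood out. This granule protease of cytotoxic T and NK cells measured 13.3 and 10.9 CPM in tumor sgTgfbr2, against 0, 0.0463 and 0.178 in tumor sgScr (log2 fold change 7.03 ± 0.54, edgeR adjusted p = 1.98e-10). The other cytotoxic genes did not accompany it, since Nkg7 had no count in tumor sgTgfbr2 and Gzmb had 0.217 CPM in 1 of its 2 libraries. Cd4, the co-receptor of helper T cells, which some macrophages also carry, had 0.922 and 1.34 CPM in tumor sgTgfbr2 whereas tumor sgScr had none, a ratio of at least 21.6-fold higher when set against 3 counts over the group (edgeR adjusted p = 0.000386). Cd3e was at least 17.9-fold higher by the same limit but rested on 1 library and was too low to be tested.

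Of the B cell members Cd79a rose in tumor sgTgfbr2, and Ms4a1 was too low to be tested. Cd79a measured 2.55 and 2.18 CPM in tumor sgTgfbr2 and 0.211, 0.232 and 0.653 in tumor sgScr (log2 fold change 2.42 ± 0.69, edgeR adjusted p = 0.00471). Of 9 other B and plasma cell genes 6 were tested, 5 rose and 1 fell. Jchain, which joins secreted IgA and IgM and is a plasma cell gene, averaged 14.3 ± 0.97 CPM in tumor sgTgfbr2 and 0.28 ± 0.24 in tumor sgScr (log2 fold change 5.30 ± 0.46, edgeR adjusted p = 1.72e-09). Pax5, the B cell transcription factor, averaged 1.84 ± 0.86 CPM in tumor sgTgfbr2 and had no count in tumor sgScr (edgeR adjusted p = 5.61e-05). Of 13 other T and NK cell genes 5 were tested, none rose and 2 fell, Thy1 and Cd5; Thy1 is also made by fibroblasts.

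The 4 MHC class II genes fell together in tumor sgTgfbr2. H2-Aa measured 63.9 and 75.4 CPM in tumor sgTgfbr2 and 90.2, 98.8 and 96.2 in tumor sgScr (log2 fold change -0.74 ± 0.14, edgeR adjusted p = 8.19e-05). H2-Eb1 measured 18.3 and 14.5 CPM in tumor sgTgfbr2 and 25.7, 26.8 and 22.6 in tumor sgScr (log2 fold change -0.89 ± 0.19, edgeR adjusted p = 0.000385). Both lay below tumor sgScr in each library. H2-Ab1 measured 49.5 and 31.7 CPM in tumor sgTgfbr2 and 66.0, 58.5 and 48.1 in tumor sgScr, which overlapped (log2 fold change -0.78 ± 0.19, edgeR adjusted p = 0.00108). It was -1.18 without tumor sgTgfbr2 replicate 1 and -0.48 without replicate 2, and passed in both. Cd74 measured 88.5 and 74.2 CPM in tumor sgTgfbr2 and 85.5, 87.0 and 82.7 in tumor sgScr, and its log2 fold change of -0.35 ± 0.14 (edgeR adjusted p = 0.035) became -0.06 (edgeR adjusted p = 0.700) on the library-total scale. Its call was also lost without tumor sgTgfbr2 replicate 2 or without tumor sgScr replicate 2 or 3, where the log2 fold change was -0.20 to -0.38.

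Of 12 other class II pathway genes 11 were tested in the tumor libraries, 2 rose and 3 fell. Ciita, the transcriptional activator of class II genes, averaged 0.39 ± 0.40 CPM in tumor sgTgfbr2 and 1.83 ± 0.69 in tumor sgScr (log2 fold change -2.51 ± 0.78, edgeR adjusted p = 0.00841). The lysosomal proteases Ctss and Lgmn moved the other way, with log2 fold changes of 1.09 ± 0.14 and 1.01 ± 0.13 (edgeR adjusted p = 7.19e-07 and 1.14e-06). Of 12 interferon-gamma response genes 11 were tested, 4 rose and 2 fell, with Psmb8 and Irf1 among those higher. Of 19 other macrophage and dendritic genes 17 were tested, 3 rose and 8 fell. The monocyte chemokine receptor Ccr2 averaged 2.6 ± 1.2 CPM in tumor sgTgfbr2 and 22.6 ± 2.7 in tumor sgScr (log2 fold change -3.41 ± 0.27, edgeR adjusted p = 3.59e-10), and the resident macrophage genes Vsig4 and Cd163 had log2 fold changes of -4.46 ± 0.37 and -1.91 ± 0.30 (edgeR adjusted p = 7.11e-10 and 9.47e-06). Of 14 other leukocyte genes all were tested, 5 rose and 4 fell, with Cytip and Arhgdib higher and Itgb2 lower.

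**Figure D5:**
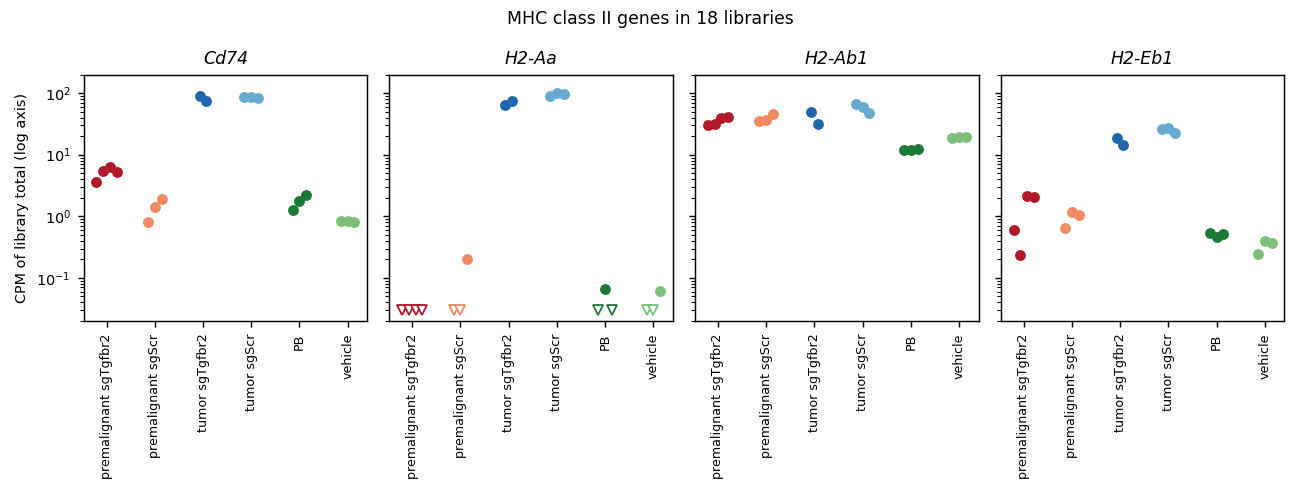
CPM of the 4 MHC class II genes in each of 18 libraries (log axis), by group; open triangles mark libraries with no count. H2-Ab1 lies between 11.8 and 66.0 CPM in every library, whereas H2-Aa is at 63.9 to 98.8 CPM in the 5 tumor libraries and at no more than 0.204 CPM in the other 13.

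The class II genes were not all read alike across the groups. H2-Ab1 was present in every library, while its partner H2-Aa was nearly absent from the 13 premalignant, PB and vehicle libraries, where it had 6 counts against 6316 for H2-Ab1. Per kilobase of annotated exon, H2-Ab1 averaged 13.8 CPM per kb in premalignant sgTgfbr2 and 15.2 in premalignant sgScr, and H2-Aa 0 and 0.0179. In the tumor group means H2-Aa was at 18.3 CPM per kb in tumor sgTgfbr2 and 25 in tumor sgScr, and H2-Ab1 at 15.8 in tumor sgTgfbr2 and 22.4 in tumor sgScr. H2-Aa was the higher of the pair in 3 of the 5 tumor libraries, and H2-Ab1 in replicate 1 of each group. Both genes lie on chromosome 17, H2-Ab1 at 34257689 to 34269419 and H2-Aa at 34282744 to 34287823 (GRCm38, GENCODE M21).

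The upstream sequences of 2 of the class II genes hold the letters of an element known from class II promoters. RefSeq promoters (GRCm38.p6) matched 26 of the 39 symbols. The Y box, CTGATTGG on either strand, is the element of class II promoters bound by NF-Y, and among the matched members it was found in the 250 bases before the start site of H2-Aa and H2-Eb1 alone. It is present in 3.83% of 32851 promoters of that length. The 150 bases before the start site of both genes are given 5′ to 3′ on the strand of the gene, with the Y box in capitals, because outside the tumor libraries H2-Aa was at no more than 0.204 CPM and H2-Eb1 at no more than 2.12 CPM. For H2-Aa (chr17:34287824-34287973, minus strand) it lies 51 to 44 bases before the start site, and for H2-Eb1 (chr17:34305717-34305866, plus strand) 62 to 55 bases before it.
H2-Aa: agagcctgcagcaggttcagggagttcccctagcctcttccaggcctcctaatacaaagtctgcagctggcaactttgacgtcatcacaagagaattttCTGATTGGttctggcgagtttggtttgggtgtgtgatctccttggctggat
H2-Eb1: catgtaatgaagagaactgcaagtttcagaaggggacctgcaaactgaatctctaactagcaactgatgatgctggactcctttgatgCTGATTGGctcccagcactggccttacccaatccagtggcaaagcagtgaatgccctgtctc
A match of these letters is a description of the sequence and not a site of binding. No promoter entry was matched for H2-Ab1. GAGGAA, the core read by PU.1, was found on either strand in 15 of the 26 matched genes, counting a gene if any of its promoters held it. Counted per promoter, 23.3% of all promoters of that length held it, so these shares are not counted alike.

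Pinaverium bromide was compared with vehicle to describe what the drug changed in tumor organoids with sgTgfbr2. Arg1, Cxcr2, Cd79a and H2-Ab1 were lower with PB, and Cd74 was higher. Of the 38 genes 9 were tested, 3 rose and 4 fell, beside 36.5% higher and 36.8% lower among 12801 genes. The median log2 fold change was -0.54 over the 9 members and -0.01 over all genes. T cell and cytotoxic genes were too low to be tested. Among the macrophage genes, Lyz2, Tyrobp, Adgre1 and C1qc had no count in the 6 libraries. Others had few counts and were not tested: Itgam had 12 with PB and 10 with vehicle, Csf1r 3 and 11, and Fcer1g 2 and 15. Vehicle was 7.15-fold higher for Fcer1g (95% counting interval 1.66 to 64.5) and 3.50-fold for Csf1r (0.924 to 19.5).

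Arg1 was the most abundant member in both groups. It measured 95.3, 90.4 and 90.2 CPM with PB and 212, 207 and 202 with vehicle, so every PB library was below every vehicle library. The log2 fold change was -1.03 ± 0.03 (edgeR adjusted p = 9.13e-40). Cxcr2 measured 3.13, 4.56 and 3.28 CPM with PB and 7.63, 8.46 and 6.68 with vehicle, also without overlap (log2 fold change -0.91 ± 0.16, edgeR adjusted p = 4.72e-07).

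Cd79a had 2 counts over the 3 PB libraries and 34 over the 3 vehicle libraries. Vehicle was 16.2-fold higher in this ratio, with an exact 95% counting interval of 4.16 to 139 (edgeR adjusted p = 1.32e-05). Cd79a stood at 0.666, 0.651 and 0.812 CPM with vehicle, while the other B cell gene Ms4a1 had no count. Of the 9 other B and plasma cell genes 7 had a row in the count tables, and none of these was high enough to be tested.

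The class II genes split. Cd74 measured 1.27, 1.78 and 2.19 CPM with PB and 0.848, 0.846 and 0.812 with vehicle (log2 fold change 1.20 ± 0.31, edgeR adjusted p = 0.000474). H2-Ab1 measured 11.9, 11.8 and 12.2 CPM with PB and 18.7, 19.6 and 19.3 with vehicle (log2 fold change -0.54 ± 0.09, edgeR adjusted p = 1.86e-07). Neither gene's groups overlapped. H2-Eb1 measured 0.534, 0.462 and 0.515 CPM with PB and 0.242, 0.391 and 0.375 with vehicle and was too low to be tested.

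Cd68 and S100a9 passed by small margins. Cd68 measured 38.1, 37.8 and 43.7 CPM with PB and 39.3, 42.3 and 37.0 with vehicle, which overlapped, and its log2 fold change was 0.15 ± 0.06 (edgeR adjusted p = 0.0179). On the library-total scale it was 0.014 and did not pass, nor did it without PB replicate 3 or vehicle replicate 3, at 0.08 and 0.11. S100a9 measured 2.6, 2.31 and 2.38 CPM with PB and 2.30, 1.43 and 1.44 with vehicle (log2 fold change 0.63 ± 0.24, edgeR adjusted p = 0.0188), and did not pass without vehicle replicate 2 or 3 or PB replicate 1, at 0.51 to 0.58. It did not pass on the library-total scale either, and with DESeq2 neither S100a9 nor Cd68 passed. Across all settings the S100a9 log2 fold change was 0.487 to 0.896. Cd14 did not pass, at 3.22 to 5.22 CPM with PB against 4.81 to 6.12 with vehicle, but on the library-total scale it did, at a log2 fold change of -0.36 (edgeR adjusted p = 0.0460). Coro1a measured 0.467 to 0.773 CPM with PB against 0.936 to 1.27 with vehicle, which did not overlap, and it did not pass.

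Related genes were again read beside the panel. Of 12 other class II pathway genes 7 were tested, 1 rose and 4 fell. Rfx5 and Rfxank, subunits of the complex that binds the X box of class II promoters, had log2 fold changes of -0.59 ± 0.06 and -0.85 ± 0.14 (edgeR adjusted p = 1.1e-14 and 2.47e-07). Of 12 interferon-gamma response genes 11 were tested, 3 rose and 7 fell, with a median log2 fold change of -0.30. The list averaged 424.7 CPM summed with PB and 484.7 with vehicle. Cxcl10, 1 of the 3 that rose, averaged 19.2 ± 1.1 CPM with PB and 8.17 ± 0.35 with vehicle (log2 fold change 1.37 ± 0.10, edgeR adjusted p = 2.55e-20). Of 14 other leukocyte genes 3 were tested, with Cd53 higher and Arhgdib lower, and of 13 other T and NK cell genes 4 were tested, of which Lck rose and none fell. Of 19 other macrophage and dendritic genes 3 were tested and did not pass, and of 16 other granulocyte and mast cell genes none could be tested.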

How the data were processed

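Total RNA was taken up in Trizol for bulk sequencing, per the labels' protocols. STAR 2.6.0a, DESeq2 1.26.0 and the build mm10 are named in the submitters' processing notes, while the sources used here do not give the counting program or its use of strand. The authors deposited 3 tables of 24421 gene rows with whole-number counts per library, which were used as deposited, and their normalized values and fold changes were not used. Levels are CPM of the library total. Each table was tested alone with edgeR 4.0.16 in R 4.3.3 (filterByExpr with a minimum count of 10, TMM scaling, quasi-likelihood F test, two-sided, Benjamini-Hochberg over all genes tested, threshold 0.05), which was tested on simulated data. DESeq2 1.42.0, other scalings and filters, a block on replicate number and leaving out each library were tried as alternatives. The members and lists were chosen with earlier results of these data known. Values in every library were given for members with a group mean of at least 5 CPM or past the threshold, and up to 3 related genes per list and comparison, by smallest p, some of which are not reported here. Positions and exon lengths are from GENCODE M21. Replicates of 1 group and line differed by more than sampling noise, with chi-square per degree of freedom of 1.51 to 21.3, against 38.1 to 57.7 between sgTgfbr2 lines 1 and 2, and none were merged.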

Additional observations from a re-analysis of the deposited data

Results flagged for a closer look

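Of 11 members looked at in the 4 premalignant sgTgfbr2 libraries, 1 had a library far from the others: Arg1 in line 1 replicate 2, at 26.5 CPM against 21.5, 22.2 and 21.7 in the other 3. Chance flags about 1 in 20 groups of this size. The Arg1 log2 fold change in the premalignant comparison was -0.05 with that library and -0.12 without it, and passed in neither.

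The sgTgfbr2 lines differed in 4 of 11 members by edgeR's test of line 2 against line 1. The log2 differences were 2.29 for H2-Eb1, 0.78 for Cd68, 0.36 for H2-Ab1 and -0.59 for Cd14. For Cd68 and Cd14 both lines were above all sgScr libraries. For H2-Eb1 the lines lay on opposite sides of the sgScr mean, and line 1 alone gave a log2 fold change of -1.23 against sgScr and line 2 alone 1.02. What sets the lines apart was not tested.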

How the results depend on the processing

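The number of members called stayed within 1.5 times its reported value under all alternatives in the premalignant and tumor comparisons. In the PB comparison the 3 members called higher became 1 under library-total scaling and 1 with DESeq2, and 1 to 3 when each library was left out in turn, with 1 without vehicle replicate 3; the cause was not tested. Deviations from the group mean correlated between same-numbered libraries at -0.099 to 0.079, and at -0.0048 to 0.012 in the PB comparison. In premalignant sgTgfbr2 these deviations also hold the difference between lines, and in tumor sgTgfbr2 those of its libraries mirror each other. Whether replicate numbers pair libraries was therefore not decided in the premalignant and tumor comparisons. With the replicate block the members called higher and lower were 3 and 2 in the premalignant, 9 and 7 in the tumor, and 3 and 4 in the PB comparison. Log2 fold changes that changed sign belonged to members not called: Arg1 in the premalignant comparison (0.014 by library total, 0.021 with the block, 0.034 for line 1 alone, -0.12 to 0.018) and H2-Eb1 (-1.23 for line 1 alone, -0.092 to 0.64), and in the tumor comparison Ptprc (-0.11 to 0.28), Coro1a (-0.12 to 0.27), Adgre1 (0.024 by library total, -0.62 to 0.0058) and C1qc (0.22 by library total, -0.30 to 0.15), where each range is over leaving out 1 library at a time. DESeq2 also lost Itgax in the tumor comparison. Of the summed levels of classes, 29 of 42 moved by over 1 SD when the most abundant gene was dropped and 12 with TMM scaling. Genes under about 0.2 CPM are at the depth limit.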
